A study of Homo sapiens with 9 samples.

Results

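The tight junction was followed through 9 of its genes in 3 related colon cancer lines: the claudins CLDN1, CLDN2, CLDN3, CLDN4, CLDN7 and CLDN12, the occludin gene OCLN, and the scaffold genes TJP1 and TJP3. They were taken as a named list, which was chosen with earlier results of these data known. Their Ensembl identifiers were looked up among the 63677 identifiers of the count files, where all 9 were found. SW480 is an established line from a human colon adenocarcinoma and was left unmodified here. SW480-B is a derivative that carries the coding sequence of BASP1, a neuronal signaling protein and transcriptional corepressor, on a pcDNA3 plasmid under the cytomegalovirus promoter. It was selected with geneticin and grown from a single cell, so that it stands for 1 clone. SW480-gRNA-B-all is a derivative made by lentiviral transduction with a CRISPR activation system, in which inactive Cas9 fused to VP64, the MS2-P65-HSF1 activator and pooled guide RNAs act on the promoter of the cells' own BASP1 gene. It too goes back to a single cell, since the cells that received the guide RNAs had been cloned after the activator and inactive Cas9 were brought in. For every line 3 poly(A) libraries were sequenced, 9 in all, and a line with an empty plasmid or without guides was not analysed here, so that BASP1 and the way in which each line was made cannot be told apart.

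Tight junctions seal the space between epithelial cells near their apical border. Claudins are membrane proteins whose outer loops line up between neighbouring cells and set which ions may pass: CLDN1, CLDN3 and CLDN4 are known mainly as sealing claudins, and CLDN2 forms a pore for cations. Occludin spans the same membrane and takes part in the regulation of the junction, while the TJP genes encode the zonula occludens proteins ZO-1 (TJP1) and ZO-3 (TJP3), which tie claudins and occludin to the actin cytoskeleton. In the colon these proteins hold the epithelial barrier, and several of them are known to shift in level when tumor cells lose epithelial order.

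The libraries held between 25238831 and 29355669 counts on genes. A level is given in CPM, the count of a gene relative to the size of its library, after scaling by the TMM method of edgeR. BASP1 had 11.9, 8.03 and 0.691 CPM in the SW480 libraries, between 250.3 and 268 CPM in SW480-B and between 167 and 303.4 CPM in SW480-gRNA-B-all. The libraries of a line were not equally close. Over 2-fold differences separated replicates 2 and 3 of SW480-gRNA-B-all in 2.08% of genes and the other pairs of one line in 11.1% to 30.8%. The median chi-square of a gene between these 2 libraries was 0.93, against 14.2 to 53.9 in the other pairs, and the mean was 3.51, so that they lay apart by more than sampling noise but by little, and the calls of TJP3 are also given with the 2 summed into 1 library. The SW480 libraries were the least alike, with a median ratio of highest to lowest level of 1.74 over genes (1.60 in SW480-B and 1.31 in SW480-gRNA-B-all). Whether the replicates came from separate cultures is not given in the sources used here, and p-values measure the spread between these libraries. Of 10 epithelial markers, 9 had at least 1 CPM in every library, among them the keratins KRT8 and KRT18, and only KRT20 stayed under 1 CPM. The 7 blood and endothelial markers summed to between 1.10 and 5.12 CPM, and HBB had 0 counts in all.

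On GRCh37, the 9 genes lie on 6 autosomes and the X chromosome. CLDN1 (ENSG00000163347) spans 190023496 to 190040235 of chromosome 3, OCLN (ENSG00000197822) 68788119 to 68853931 of chromosome 5, and TJP1 (ENSG00000104067) 29991571 to 30261118 of chromosome 15. CLDN3 (ENSG00000165215; 73183327 to 73184600) and CLDN4 (ENSG00000189143; 73213872 to 73247020) are neighbours on chromosome 7. CLDN12 (ENSG00000157224) lies on the same chromosome from 90013035 to 90142716, and 347 bases of its exons are also exon of GTPBP10 on the same strand. CLDN7 (ENSG00000181885) spans 7163222 to 7167302 of chromosome 17, TJP3 (ENSG00000105289) 3708360 to 3750811 of chromosome 19 and CLDN2 (ENSG00000165376) 106143394 to 106174091 of the X chromosome. TJP3 shares 42 exonic bases with APBA3 on the opposite strand, and CLDN2 lies within MORC4, also on the opposite strand. The strand setting used for counting is not given in the sources used here, and counts in such shared stretches are uncertain. OCLN has a partial pseudogene copy, OCLNP1, and its counts are uncertain for that reason.

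The stretches of 250 bases before the annotated starts of the 9 genes, 16 windows in the RefSeq promoter table, were each found once in GRCh37 by exact match. They are shown for the gene called between lines (TJP3, the second listed start, which lies within the annotated span of the gene), for the gene whose level varied most between libraries (CLDN1) and for the window with the most motif matches (CLDN7, the second listed start, also within the span). Capitals mark CAGGTG or its reverse complement CACCTG, the E-box letters known to be bound by repressors of the Snail and ZEB families.
TJP3, chr19:3721485-3721734, plus strand: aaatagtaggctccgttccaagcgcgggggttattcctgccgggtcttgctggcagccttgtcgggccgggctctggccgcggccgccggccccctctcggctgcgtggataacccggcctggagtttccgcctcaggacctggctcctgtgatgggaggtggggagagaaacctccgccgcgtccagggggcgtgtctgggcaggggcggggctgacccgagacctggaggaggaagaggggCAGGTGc
CLDN1, chr3:190040236-190040485, minus strand: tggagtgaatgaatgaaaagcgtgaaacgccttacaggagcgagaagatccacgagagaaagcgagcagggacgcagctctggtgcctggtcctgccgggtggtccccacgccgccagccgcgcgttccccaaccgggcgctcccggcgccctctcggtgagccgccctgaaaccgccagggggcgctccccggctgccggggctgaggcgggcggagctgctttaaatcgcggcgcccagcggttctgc
CLDN7, chr17:7165798-7166047, minus strand: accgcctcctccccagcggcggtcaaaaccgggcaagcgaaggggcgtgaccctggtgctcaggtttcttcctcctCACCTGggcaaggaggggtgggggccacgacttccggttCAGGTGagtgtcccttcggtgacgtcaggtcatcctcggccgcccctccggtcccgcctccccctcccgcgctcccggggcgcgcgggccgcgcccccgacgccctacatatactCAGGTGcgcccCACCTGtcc
CAGGTG occurred on either strand in 5 of the 16 windows, from TJP3, CLDN7, OCLN and TJP1, against 17.5% of all 35116 promoter windows of the same length. The printed CLDN7 window held 4 matches, the printed TJP3 window 1, which begins 7 bases before the start, and the CLDN1 window none. The first listed windows of TJP3 and CLDN7, not printed, held 0 matches. The TCF/LEF letters CTTTGAT and CTTTGTT, which share their first 5 letters, occurred in 0 and 1 of the 16 windows (2.26% and 4.50% of all windows), the 1 being that of CLDN4. GATAAG, the letters read by GATA factors, occurred in 2 windows, of TJP1 and CLDN2 (5.65% of all windows). The printed windows held 69.6% (TJP3), 68.8% (CLDN1) and 71.2% (CLDN7) G and C, and the median over all windows was 58%. Which start these cells use was not measured, and a match of letters is a description of the window.

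The level of the same gene can be compared between lines directly, and levels of different genes per kb of exon. In SW480, CLDN7 (42.3 ± 14.7 CPM per kb, SD, n = 3) and CLDN1 (37.4 ± 30.8 CPM per kb) stood highest, followed by CLDN4 (24.05 ± 9.36 CPM per kb) and TJP1 (17.7 ± 1.13 CPM per kb). These 4 overlapped with their neighbours in the order. CLDN12 (11.1 CPM per kb) and CLDN3 (10.4 CPM per kb) overlapped as well. OCLN (2.10 CPM per kb) and TJP3 (1.68 CPM per kb) were the lowest genes with counts in every library, and CLDN2 had 0 counts in SW480. The top genes by mean were CLDN4 (37.05 CPM per kb), TJP1 (28.1 CPM per kb) and CLDN7 (23.6 CPM per kb) in SW480-B. In SW480-gRNA-B-all they were CLDN7 (40.4 CPM per kb), CLDN4 (29.1 CPM per kb) and CLDN3 (19.4 CPM per kb). There CLDN1 stood at 4.21 ± 4.63 CPM per kb, TJP3 at 5.43 CPM per kb and OCLN at 2.88 CPM per kb, and the TJP3 libraries (4.61 to 5.91 CPM per kb) were all above those of OCLN (2.82 to 3.01 CPM per kb). The order in the upper part depends on the length used. Per kb of the canonical transcript, the means in SW480 were 68.4 CPM for CLDN7, 66.7 CPM for CLDN4 and 39.3 CPM for CLDN1.

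**Figure D1:**
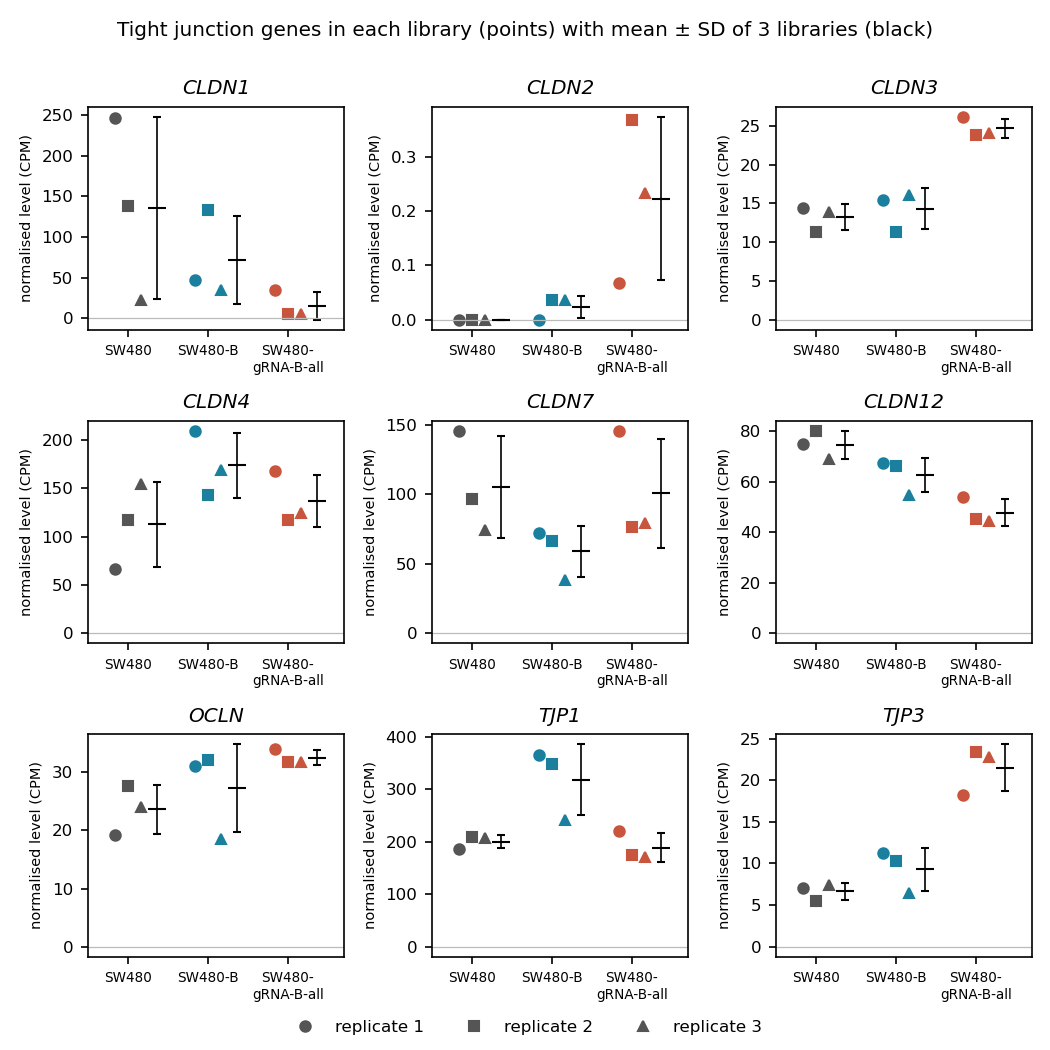
Normalised level (CPM, linear axes) of each of the 9 genes in the 9 libraries, with 1 point per library, shaped by replicate number and coloured by line, and black bars for mean ± SD (n = 3). In the TJP3 panel the SW480-gRNA-B-all libraries (18.3 to 23.4 CPM) sit above all others, and in the CLDN1 panel the SW480 libraries spread from 22.7 to 246 CPM.

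TJP3 was the gene of the group that was called between lines. The SW480 libraries had 7.09, 5.48 and 7.42 CPM, those of SW480-B 11.2, 10.3 and 6.40 CPM, and those of SW480-gRNA-B-all 18.3, 23.4 and 22.8 CPM. Every library of SW480-gRNA-B-all was thus above every library of the other lines, while SW480 and SW480-B overlapped. The log2 difference of SW480-gRNA-B-all from SW480 was 1.68 (standard error, SE, 0.23; adjusted p = 0.013 by the quasi-likelihood test of edgeR, Benjamini-Hochberg adjusted), a 3.21-fold higher level. Against SW480-B it was 1.21 (SE 0.26, adjusted p = 0.025, same test), or 2.31-fold. Between SW480-B and SW480 it was 0.51 (SE 0.34, adjusted p = 0.50). In bulk RNA, a gene expressed by more cells and more RNA per cell cannot be told apart.

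The TJP3 call was sensitive to the number of libraries. With each library of the comparison left out in turn, the log2 difference from SW480 stayed between 1.59 and 1.80, and TJP3 remained called in 3 of 6 fits. It was not called without replicate 2 (adjusted p = 0.082) or replicate 3 (adjusted p = 0.077) of SW480-gRNA-B-all, or without replicate 2 of SW480 (adjusted p = 0.068), in edgeR's test. Counting the close replicates 2 and 3 as 1 library gave 1.65 (adjusted p = 0.077) from SW480 and 1.17 (adjusted p = 0.10) from SW480-B, not called in either. Over the alternatives that kept every count, the adjusted p ran from 7.1e-11 to 0.077 against SW480 and from 0.00035 to 0.10 against SW480-B. The difference from SW480-B ran from 1.00 to 1.37 with 1 library left out and was called in 2 of 6 fits; it was lost without replicate 2 or 3 of either line, by the p-value or, without replicate 3 of SW480-B, by its size (1.00, adjusted p = 0.026). The 97 other genes tested within 2 Mb of TJP3 had a median log2 difference of 0.42 from SW480 in SW480-gRNA-B-all, and 2 of them were called. APBA3, its overlapping neighbour, had 8.88 to 26.4 CPM. The part of the surrounding region in the level of TJP3 was not tested.

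The genes whose profile over the 9 libraries came closest to that of TJP3, out of 14687 compared, were DENND6B, HOGA1 and JAZF1. Their centred log2 levels differed from those of TJP3 by a root mean square of 0.213, 0.251 and 0.266, where TJP3's own spread over the libraries was 0.755.

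TJP1 followed another order, with its highest levels in SW480-B. It had 185.5, 209 and 207 CPM in SW480, 365, 349 and 240.5 CPM in SW480-B and 220.0, 175 and 170.3 CPM in SW480-gRNA-B-all. All SW480-B libraries were above all others, and the other lines overlapped. The log2 difference of SW480-B from SW480 was 0.70 (SE 0.24, adjusted p = 0.21), and that of SW480-gRNA-B-all from SW480-B was -0.76 (SE 0.21, adjusted p = 0.064, edgeR for both), so that neither passed the test. For the difference from SW480-B the adjusted p ran from 0.012 by DESeq2 to 0.27 without replicate 3 of SW480-gRNA-B-all (edgeR), and no alternative called it, since the change stayed under 2-fold wherever it passed by the p-value. SW480-gRNA-B-all differed from SW480 by -0.10 (SE 0.17, adjusted p = 0.73). Per kb, TJP3 stood at 7.5% to 10.9% of the level of TJP1 in SW480, at 7.59% to 8.79% in SW480-B and at 23.7% to 38.3% in SW480-gRNA-B-all. The libraries of SW480-gRNA-B-all were above all the others in this ratio, and TJP3 still had the lower level.

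**Figure D2:**
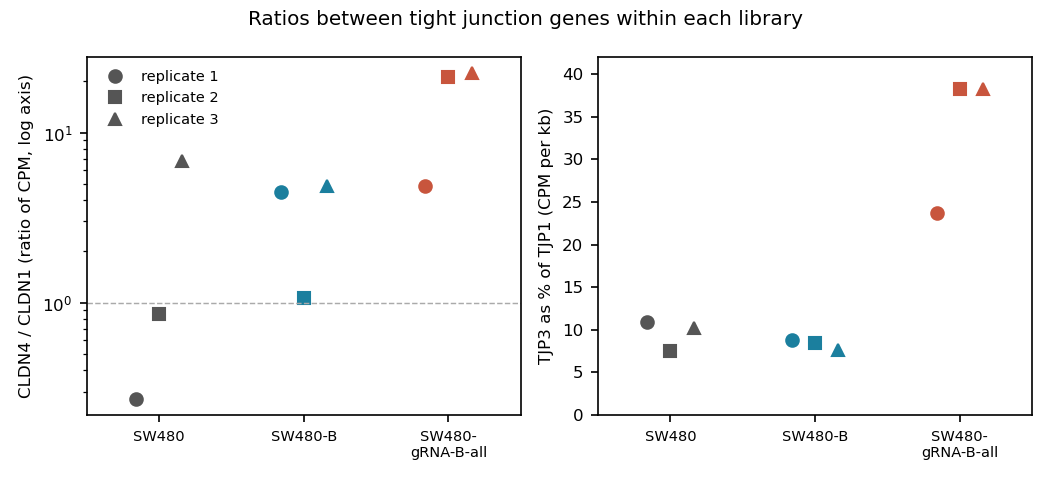
Left, ratio of the CPM of CLDN4 to that of CLDN1 in each library (log axis, dashed line at equal levels); right, TJP3 as a percentage of TJP1 by CPM per kb (linear axis from 0). Points are single libraries, shaped by replicate number. The ratio of CLDN4 to CLDN1 runs from 0.272 to 6.80 within SW480 alone, and TJP3 reaches 23.7% to 38.3% of TJP1 in SW480-gRNA-B-all.

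CLDN1, a sealing claudin that is known as a target of β-catenin/TCF signaling, had the largest log2 difference of the 8 genes that passed the filter on low counts. It had 246, 138 and 22.7 CPM in SW480, 46.8, 133 and 35.1 CPM in SW480-B and 34.6, 5.54 and 5.61 CPM in SW480-gRNA-B-all. The SW480-gRNA-B-all libraries lay below all of SW480-B but overlapped SW480, because replicate 3 of SW480 (22.7 CPM) was under replicate 1 of SW480-gRNA-B-all. The highest library exceeded the lowest by 10.8 times in SW480, 3.79 times in SW480-B and 6.25 times in SW480-gRNA-B-all. In SW480, 3.16% of 16486 genes spread by over 10 times.

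On the log2 scale, the difference of CLDN1 from SW480 was -3.16 (SE 1.06, adjusted p = 0.11) and that from SW480-B was -2.23 (SE 0.79, adjusted p = 0.13, edgeR for both) in SW480-gRNA-B-all, and neither was called. Single libraries decided the call. Without replicate 3 of SW480 it was -3.63 and called lower (adjusted p = 0.039), and without replicate 1 of SW480-gRNA-B-all it was called lower than in SW480-B (-3.66, adjusted p = 0.019). DESeq2's Wald test called it lower than in SW480 (-3.13, adjusted p = 0.035). Over the alternatives that kept every count, the adjusted p against SW480 ran from 0.03 to 0.30. Between SW480-B and SW480 the log2 difference was -0.89 (SE 0.77, adjusted p = 0.61).

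The same SW480 libraries differed in other genes. VIM, a mesenchymal intermediate filament gene, had 51.5, 421 and 746 CPM, and VIL1, which encodes the brush border protein villin, had 344, 308 and 98.8 CPM in replicates 1, 2 and 3. The markers of a list did not move together over these libraries. EPCAM and ESRP1 fell as VIL1 did, but CDH1 (21.4, 37.4 and 72.9 CPM), KRT18, KRT19, CDX2 and ESRP2 rose as VIM did. KRT8 and KRT20 followed neither order, and the mesenchymal marker LUM fell (6.47, 2.1 and 0.982 CPM). The 9 mesenchymal markers summed to between 95.95 and 908 CPM in SW480, 655 and 1232 CPM in SW480-B and 480 and 509 CPM in SW480-gRNA-B-all, and COL3A1 had 0 counts in all. The 10 epithelial markers summed to 8587 to 11110 CPM in SW480, 7178 to 11520 CPM in SW480-B and 6454 to 7896 CPM in SW480-gRNA-B-all, sums carried mainly by KRT8 and KRT18. Of the 9 tested, 8 had lower levels in SW480-gRNA-B-all when set against SW480 (median log2 difference -0.83), and 2 of them were called lower, CDX2 and VIL1. Over all genes, 4.66% were called lower and the median was -0.05. Against SW480-B, 8 of the 9 were lower as well (median -0.775), and 1 was called lower (4.37% of all genes). In SW480-B against SW480, 5 were higher and 4 lower (median 0.002), and 1 was called lower (1.25% of all genes). VIL1 had 29.6 to 35.9 CPM in SW480-B and 6.34 to 21.5 CPM in SW480-gRNA-B-all, and was lower than in SW480 by edgeR's test in both (log2 -2.94, adjusted p = 0.025, and log2 -4.44, adjusted p = 0.019). The part of these differences in the levels of CLDN1 was not tested. Whether the calls of the markers hold without single libraries was not tested either.

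CLDN3 and CLDN12 were the least variable claudins within a line, and they lay on opposite sides. CLDN3, a sealing claudin, had 14.4, 11.4 and 13.9 CPM in SW480, 15.5, 11.3 and 16.1 CPM in SW480-B and 26.1, 23.9 and 24.1 CPM in SW480-gRNA-B-all. The SW480-gRNA-B-all libraries were above all the others. Its log2 difference was 0.89 against SW480 (SE 0.19, adjusted p = 0.035) and 0.79 against SW480-B (SE 0.20, adjusted p = 0.049), past the p threshold of edgeR's test in both but below 2-fold. Against SW480 the adjusted p ran from 3.8e-05 to 0.14 over the alternatives that kept every count, and reached 0.15 with 1 library left out.

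CLDN12, a broadly expressed claudin, had 75.2, 80.1 and 68.9 CPM in SW480, 67.4, 66.1 and 54.9 CPM in SW480-B and 53.9, 45.3 and 44.4 CPM in SW480-gRNA-B-all. The libraries of the 3 lines did not overlap in that order. Its log2 difference of SW480-gRNA-B-all from SW480 was -0.65 (SE 0.15, adjusted p = 0.050, just under the threshold before rounding) and less than 2-fold. Against SW480-B it was -0.40 (SE 0.16, adjusted p = 0.18, edgeR). The 14 other genes tested within 2 Mb of CLDN12 had a median log2 difference of -0.67 from SW480 in the same comparison. GTPBP10, which shares exonic bases with CLDN12, had 33.7 to 84.5 CPM. The part of the region and of the shared bases in the level of CLDN12 was not tested.

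CLDN4, a sealing claudin found in many carcinomas, had 66.9, 118 and 154 CPM in SW480, 209.8, 143 and 169.5 CPM in SW480-B and 168, 118 and 125 CPM in SW480-gRNA-B-all. The lines overlapped in every comparison. Relative to SW480, the log2 difference was 0.66 (SE 0.33, adjusted p = 0.37) for SW480-B and 0.27 (SE 0.31, adjusted p = 0.60, edgeR for both) for SW480-gRNA-B-all. Within SW480, the library with most CLDN1 had least CLDN4 and the reverse. The ratio of CLDN4 to CLDN1 was 0.272, 0.853 and 6.80 in SW480, 4.48, 1.07 and 4.82 in SW480-B and 4.84, 21.2 and 22.3 in SW480-gRNA-B-all. The SW480-gRNA-B-all libraries overlapped SW480 in this ratio and lay just above SW480-B.

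CLDN7, which is expressed along the lateral membrane of the colon epithelium as well as at its junctions, was lowest in SW480-B. It had 146, 96.5 and 74.0 CPM in SW480, 72.4, 66.01 and 38.1 CPM in SW480-B and 146, 76.5 and 79.6 CPM in SW480-gRNA-B-all. The SW480-B libraries lay below all the others, which overlapped. The log2 difference of SW480-B from SW480 was -0.81 (SE 0.33, adjusted p = 0.29), and that of SW480-gRNA-B-all from SW480-B was 0.77 (SE 0.32, adjusted p = 0.18, edgeR for both). Between SW480-gRNA-B-all and SW480 it was -0.07 (SE 0.34, adjusted p = 0.90), and its sign depended on the libraries included.

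CLDN2, the cation pore claudin, was close to the limit of detection. It had 0 counts in the SW480 libraries, 0, 1 and 1 counts in SW480-B and 2, 11 and 7 counts in SW480-gRNA-B-all, and did not pass the filter on low counts. At this depth, 0 counts allow up to 3, which is 0.102 to 0.119 CPM per library, and this limit and the interval given next cover counting error only. With 3 counts set over the 3 SW480 libraries, the pooled level of CLDN2 in SW480-gRNA-B-all was 6.74 times that limit. The error of its own 20 counts is not included, so that this is not a lower bound of the difference. Leaving out 1 library of SW480-gRNA-B-all moved this value to between 4.58 and 8.96. Replicate 1 of SW480-gRNA-B-all (0.0677 CPM) lay under the limit of a single library. The ratio of CLDN2 in SW480-gRNA-B-all to SW480-B was 9.65 (95% counting interval 2.34 to 85.2). With no filter on low counts CLDN2 was not called in edgeR's test (adjusted p = 0.058 against SW480 and 0.12 against SW480-B). Even in SW480-gRNA-B-all, its highest library reached 0.367 CPM, so that the cation pore claudin remained the rarest claudin of the group.

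OCLN, the occludin gene, spread by at most 1.73 times within a line. It had 19.1, 27.6 and 24.0 CPM in SW480, 31.1, 32.1 and 18.6 CPM in SW480-B and 33.9, 31.7 and 31.7 CPM in SW480-gRNA-B-all. The SW480-gRNA-B-all libraries were above all of SW480 and overlapped SW480-B. Its log2 difference was 0.45 against SW480 (SE 0.19, adjusted p = 0.17) and 0.25 against SW480-B (SE 0.23, adjusted p = 0.55, edgeR for both). In SW480-B against SW480 it was 0.24 (SE 0.28, adjusted p = 0.72).

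**Figure D3:**
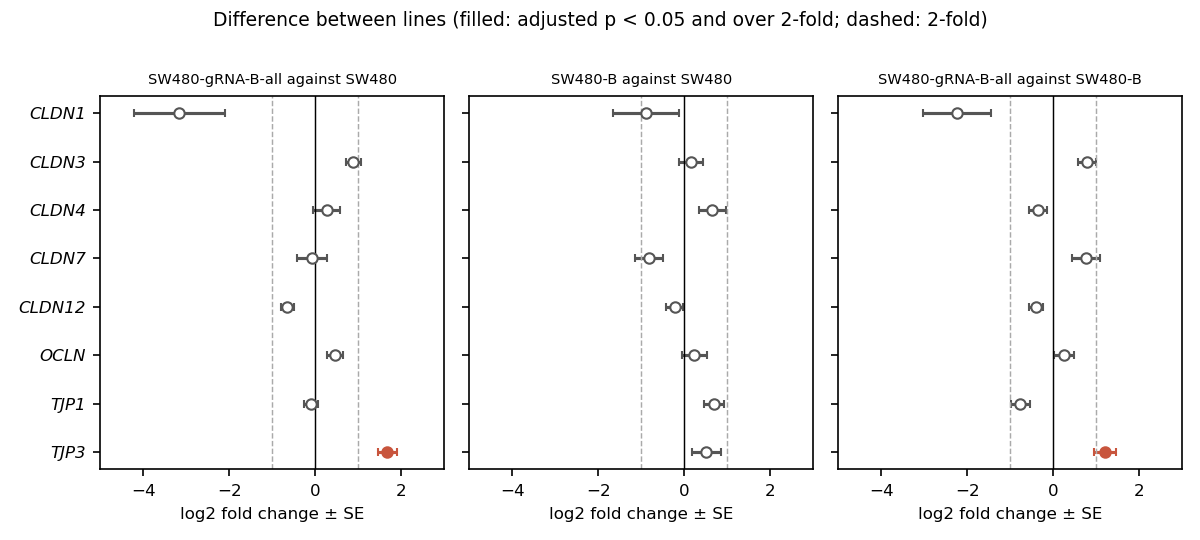
Log2 fold change with standard error for the 8 genes that passed the filter on low counts, in the 3 comparisons of lines; the dashed lines mark 2-fold and filled points mark an adjusted p under 0.05 with a change above 2-fold. TJP3 is the filled point in both comparisons of SW480-gRNA-B-all, at 1.68 and 1.21, and CLDN1 has the widest bars.

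Each comparison tested 8 of the 9 genes, all but CLDN2. Against SW480, 1 of the 8 was called higher in SW480-gRNA-B-all, where 1.89% of the 16100 genes tested were, and 0 were called lower, where 4.66% of genes were. With DESeq2 1 was called lower, CLDN1, and over all genes 1282 were called lower and 818 higher. The groups did not overlap for 4 of the 8 (CLDN3, CLDN12, OCLN and TJP3), against 38% of genes, and 5 of the 8 had an unadjusted p under 0.05 in edgeR's test, as had 28.4% of genes. The median log2 difference of the 8 was 0.10, and that of all genes tested was -0.05.

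In SW480-B against SW480, which shares the SW480 libraries with the comparison above, 0 of the 8 were called by edgeR or by DESeq2. Of all genes tested, edgeR called 0.0931% higher and 1.25% lower, and DESeq2 called 362 genes higher and 591 lower. At an unadjusted p under 0.05, 2 of the 8 differed, TJP1 and CLDN7, and 15.8% of all genes did. The groups did not overlap for 3 of the 8 (CLDN7, CLDN12 and TJP1), where 22.4% of all genes did not, and the medians were 0.20 for the 8 and -0.004 for all genes.

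In SW480-gRNA-B-all against SW480-B, edgeR called 1 of the 8 higher, TJP3, where 2.31% of genes were, and 0 lower, where 4.37% were. DESeq2 also called 1 of the 8 higher and 0 lower, and 515 genes higher and 932 lower over all genes. At an unadjusted p under 0.05, 6 of the 8 differed, and 24.4% of all genes did. The groups did not overlap for 6 of the 8, where 30.4% of all genes did not: CLDN3, CLDN7 and TJP3 were higher in SW480-gRNA-B-all, and CLDN1, CLDN12 and TJP1 were lower. The medians were -0.05 for the 8 and -0.004 for all genes. Because the group was chosen with earlier results of these data known, its counts beside those of all genes are a description, not a test.

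The make-up was also compared among the 6 claudins of the group, which are not all the claudins of these cells. CLDN11, outside the group, had mean levels of 79.6 CPM (SW480), 70.7 CPM (SW480-B) and 42.5 CPM (SW480-gRNA-B-all). Its SW480-gRNA-B-all libraries lay below all the others. Neither difference was called (log2 -0.91, adjusted p = 0.057 from SW480, and log2 -0.74, adjusted p = 0.083 from SW480-B, edgeR). The shares below leave it out. The CPM per kb of the 6 claudins summed to 163, 123 and 90.03 in the SW480 libraries, to 108.8, 112.4 and 81.91 in SW480-B and to 132, 82.9 and 85.7 in SW480-gRNA-B-all, so that the totals of the lines overlapped. CLDN1 made up 41.6%, 31.0% and 6.95% of that sum in SW480, 11.8% to 32.7% in SW480-B and 1.81% to 7.22% in SW480-gRNA-B-all. CLDN3 made up 8.79% ± 2.91 in SW480, 11.5% ± 3.82 in SW480-B and 20.1% ± 3.96 (SD, n = 3 for each line) in SW480-gRNA-B-all. The lowest library of SW480-gRNA-B-all and the highest of SW480-B both round to 15.5%, and SW480 reached 12.1%.

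CLDN7 held 33.5% ± 2.20 of the sum in SW480, 23.0% ± 4.05 in SW480-B and 39.5% ± 4.07 (SD, n = 3 for each line) in SW480-gRNA-B-all. The 3 lines did not overlap, with 31.6% to 35.9%, 18.7% to 26.7% and 37% to 44.2%. Divided by the length of the canonical transcript, however, SW480-gRNA-B-all (32.6% to 39.5%) and SW480 (27.3% to 39.7%) did overlap, and SW480-B stayed below both. CLDN4 took 21.9% ± 13.9, 37.4% ± 9.05 and 29.4% ± 2.14 in the same order, and its ranges overlapped. An exact permutation test of 3 against 3 libraries cannot give a 2-sided p below 0.10, and none was run on the shares.

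**Figure D4:**
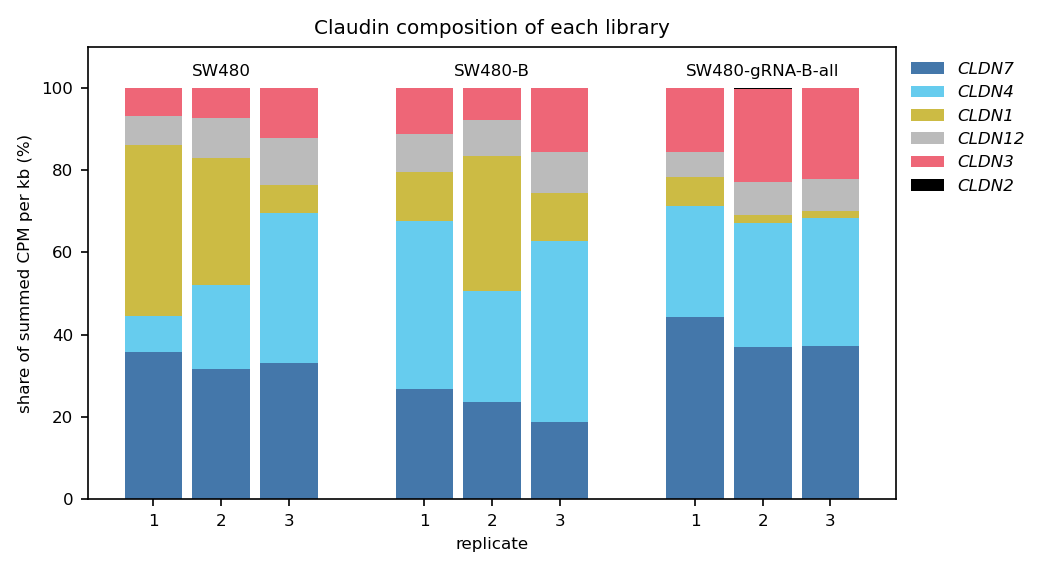
Share of each claudin in the summed CPM per kb of the 6 claudins (%), with 1 stacked bar per library, grouped by line. The CLDN1 segment takes between 6.95% and 41.6% in libraries of SW480 and is 1.81% to 7.22% in SW480-gRNA-B-all, where the CLDN3 segment is 15.5% to 22.6%. CLDN2 is too low to be seen.

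The other genes of the junction were taken from 5 further lists with 62 genes: other claudins, other membrane proteins, other scaffolds, the apical polarity complexes, and signaling and traffic proteins of the junctional plaque. In SW480-gRNA-B-all, 46 of them could be tested against SW480, and 3 were called higher and 1 lower, with a median log2 difference of -0.08. Of all genes tested, 1.89% were called higher and 4.66% lower, with a median of -0.05. CGNL1, which encodes the scaffold paracingulin, fell from 14.6 ± 12.7 CPM to 0.324 ± 0.0168 CPM (SD, n = 3 each), with a log2 difference of -5.49 (SE 0.94, adjusted p = 0.023). WNK4, a kinase known to act on claudins, rose from 1.01 ± 0.209 to 17.9 ± 12.4 CPM, with a log2 difference of 4.14 (SE 0.55, adjusted p = 0.013). ILDR2, a protein of tricellular contacts, rose from 6.18 ± 2.6 to 21.2 ± 0.440 CPM (log2 1.77, SE 0.34, adjusted p = 0.029). The fourth, named after its value was seen, was CLDN9 with 1.28 (adjusted p = 0.050), at 3.67 CPM in SW480-gRNA-B-all. All p-values are from edgeR's test. DESeq2 called 1 other claudin higher, 1 of the other membrane proteins higher and 1 lower, and 1 scaffold higher and 2 lower. It called 1 polarity gene lower, and 3 signaling and traffic genes higher and 1 lower. Over all genes it called 818 higher and 1282 lower.

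In SW480-B against SW480, 47 of the genes were tested, 0 were called higher and 1 lower by edgeR, with a median of -0.03. Over all genes tested, 0.0931% were called higher and 1.25% lower, with a median of -0.004. The listed gene called lower was CGNL1, at 0.306 ± 0.0715 CPM in SW480-B (log2 -5.53, SE 0.91, adjusted p = 0.033). SW480 itself varied widely in this gene. DESeq2 called 1 of the other membrane proteins higher and 1 lower, and 1 of the other scaffolds higher and 2 lower. It also called 1 gene of the polarity complexes lower, and 0 in the remaining lists. In SW480-gRNA-B-all against SW480-B, 44 of the listed genes were tested, 3 were called higher and 1 lower by edgeR, with a median of 0.11. Over all genes tested, 2.31% were called higher and 4.37% lower, with a median of -0.004. WNK4 rose by 3.53 (adjusted p = 0.0063), and CGN, which encodes the scaffold cingulin, rose from 6.25 ± 1.54 to 29.3 ± 1.24 CPM (log2 2.22, SE 0.23, adjusted p = 0.002). CXADR, an adhesion protein of the junction, fell from 102 ± 12.5 to 32.2 ± 6.38 CPM (log2 -1.67, SE 0.20, adjusted p = 0.0032). PARD6A, a polarity protein named after its value was seen, was the other one called higher (log2 1.15, adjusted p = 0.036). DESeq2 called 1 of the other membrane proteins lower, 1 scaffold higher, and 1 polarity gene higher and 1 lower. It also called 1 signaling and traffic gene higher. Over all genes it called 515 higher and 932 lower. Whether the calls of the listed genes hold without single libraries, or with the close replicates of SW480-gRNA-B-all summed, was not tested.

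**Figure D5:**
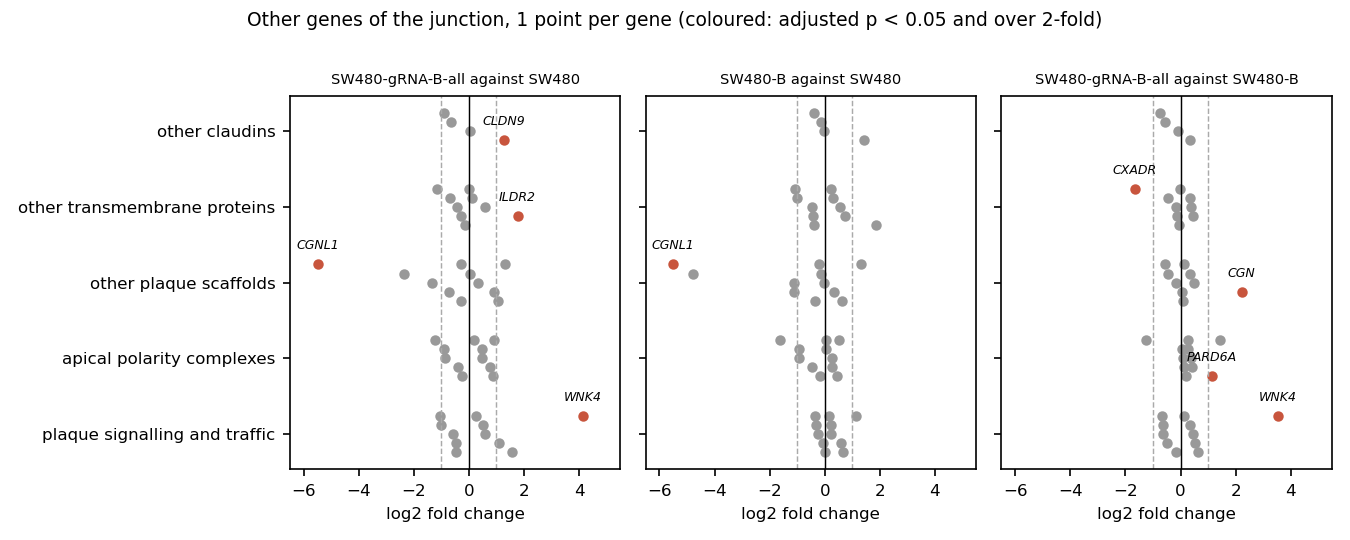
Log2 fold change of each tested gene of the 5 further lists in the 3 comparisons, with 1 point per gene spread vertically for legibility; coloured, named points have an adjusted p under 0.05 and a change above 2-fold. Most points lie between the dashed 2-fold lines, and the named ones are CGNL1, WNK4, ILDR2, CLDN9, CGN, CXADR and PARD6A.

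Of 15 transcription factors known to act on claudin or occludin genes, 10 could be tested between SW480-gRNA-B-all and SW480, and 2 were called lower and 0 higher, where 4.66% of all genes were called lower and 1.89% higher. The median was -1.23 (-0.05 over all genes), and 6 had an unadjusted p under 0.05, all of them lower, as had 28.4% of genes in either direction. DESeq2 called 6 lower and 0 higher, and over all genes it called 1282 lower and 818 higher. CDX2, an intestinal factor known to activate CLDN1 and CLDN2, fell from 34.3 ± 6.55 to 3.53 ± 1.73 CPM (log2 -3.28, SE 0.38, adjusted p = 0.009). KLF5 fell from 298 ± 158 to 63.8 ± 14.8 CPM (SD, n = 3; log2 -2.23, adjusted p = 0.030). Among the E-box repressors, SNAI1 had 5.24 CPM in SW480 against 2.13 CPM (log2 -1.31, adjusted p = 0.054), SNAI2 had 8.56 and 1.67 CPM (log2 -2.36, adjusted p = 0.15), and ZEB1 had 9.12 and 12 CPM (log2 0.39, adjusted p = 0.37). None of these 3 was called. In SW480-B against SW480, 0 of the same 10 factors were called by edgeR, where 0.0931% of all genes were called higher and 1.25% lower. DESeq2 called 2 of the 10 lower, and over all genes 591 lower and 362 higher. The median of the 10 factors was -0.67 (-0.004 over all genes). An unadjusted p under 0.05 was found for 6 of them, 3 higher and 3 lower in SW480-B, and for 15.8% of all genes. Set against SW480-B, edgeR's calls in SW480-gRNA-B-all were 2 of the 10 factors, CDX2 and KLF5, both lower. The shares of all tested genes were 4.37% (lower) and 2.31% (higher). The median of the 10 was -0.475 (-0.004 for all genes), with 9 below 0. DESeq2 likewise gave 2 lower calls among the 10. CDX2 had 61.4 ± 5.18 CPM in SW480-B, from which it was lower in SW480-gRNA-B-all by edgeR's test (log2 -4.12, SE 0.34, adjusted p = 0.00099). KLF5 had 176 ± 50.9 CPM in SW480-B (log2 -1.47, SE 0.25, adjusted p = 0.011, same test).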

How the data were processed

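The authors isolated RNA in triplicate, made stranded TruSeq poly(A) libraries and sequenced them on a NovaSeq instrument. They used GRCh37 and Ensembl genes for alignment and deposited whole-number counts per gene and library, not normalized; the counting program and its strand setting are not given in the sources used here. Lines for fragments on no gene (5.22% to 9.93%) or on several genes (3.09% to 3.44%) stayed out of all totals. The authors also deposited the coverage signal along transcripts per library, whose ratio between the first and last 20% of a transcript was 0.838 to 0.892.

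Identifiers were matched to symbols for 55665 genes. Comparisons used the 6 libraries of 2 lines at a time and edgeR 4.0.16 (R 4.3.3): filterByExpr (10 counts, 15 in total), TMM, glmQLFit (robust) and glmQLFTest, with Benjamini-Hochberg adjustment over all genes tested. Called means an adjusted p under 0.05 and over 2-fold. The standard error is the log2 fold change over the root of F. CPM uses TMM factors over 9 libraries; exon lengths are merged exons. Scripts were tested on simulated data. The members and lists were chosen with earlier results of these data known, and 1 gene of the transcription factor list is not reported here. Named beyond the 9 genes were up to 3 called genes per comparison from the 5 junction lists with the largest change, no overlap and a mean of 1 CPM or more in the higher line, and the 3 profiles most like a called member. Single cell type markers and transcription factors were named from their lists outside this rule. Promoter sequences are from RefSeq (table of GRCh38.p14), placed on GRCh37 by exact match. Replicate numbers paired SW480-B with SW480 (correlations of deviations 0.299, 0.341 and 0.404) but not the other lines, where replicate 2 gave -0.0346 and -0.104. Alternatives were RLE factors, other filters, all 9 libraries in 1 fit, the block, DESeq2 1.42.0, other thresholds, libraries left out or summed, and, for shares, other lengths.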

Additional observations from a re-analysis of the deposited data

Results flagged for a closer look

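TJP3 was singled out because both BASP1-expressing lines were compared with the same SW480 libraries and their differences were not alike. It was higher than in SW480 by 1.68 on the log2 scale in SW480-gRNA-B-all and by 0.51 in SW480-B. The difference between these lines was itself tested, and SW480-gRNA-B-all was higher by 1.21 (standard error 0.26, adjusted p = 0.025, quasi-likelihood test of edgeR, Benjamini-Hochberg adjusted), with all 3 of its libraries (18.3 to 23.4 CPM) above all 3 of SW480-B (6.40 to 11.2 CPM). Counting replicates 2 and 3 of the higher line as 1 library gave 1.17 (adjusted p = 0.10 in edgeR, and over all alternatives 0.00035 by DESeq2 to 0.10).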

How the results depend on the processing

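Under the alternatives, 287 log2 differences of the 8 tested genes kept their direction and their side of the threshold, 9 of TJP3 fell short of it, 4 of CLDN1 came past it and 4 of CLDN7 changed sign. CLDN7 in SW480-gRNA-B-all against SW480 came to 0.10 with replicates 2 and 3 of that line summed and to between -0.43 and 0.24 with single libraries left out, in no case past the threshold. In that comparison, 1 gene of the group was called lower with the replicate number as a block (CLDN1, -3.15, adjusted p = 0.03, edgeR), though the numbers did not pair these libraries, and 1 by DESeq2. The block changed no call in SW480-B against SW480 or between the derived lines. With replicates 2 and 3 summed, 0 genes of the group were called higher against either line, and the adjusted p of TJP3 was 0.077 and 0.10 (edgeR). Without a minimum size, 2 were higher (CLDN3 and TJP3) and 1 lower (CLDN12) against SW480, and 2 higher against SW480-B. Over all genes, 368 were then higher and 888 lower against SW480, and 480 higher and 908 lower against SW480-B. With 1 library left out, the number called higher ran from 0 to 1 in both comparisons, and the number called lower from 0 to 1 in both. The cause was not tested.

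Shares depended on length. Without division by length, CLDN7 took 23.5% in SW480, 15.1% in SW480-B and 30.3% in SW480-gRNA-B-all, and CLDN4 42.6% in SW480-gRNA-B-all. By canonical transcript length, chosen after seeing the data, CLDN4 took 54.1% in SW480-B and 44.5% in SW480-gRNA-B-all, and CLDN7 34.9% in SW480-gRNA-B-all.

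The share of all genes called, which serves as background, also moved. For SW480-gRNA-B-all against SW480, 304 higher and 751 lower calls over all genes became 1 and 7 without replicate 2 of SW480, 961 and 1698 without its replicate 3, 20 and 77 with 2 libraries summed, and 818 and 1282 by DESeq2. For SW480-B, 15 and 201 became 362 and 591 by DESeq2, 56 and 263 with the block, and 0 and 0 without its replicate 1 (1951 genes at an unadjusted p under 0.05, edgeR). Between the derived lines, 366 and 693 became 135 and 285 without replicate 3 of SW480-gRNA-B-all and 607 and 941 without replicate 3 of SW480-B. Counts of CLDN2 were too low to pass the filter on low counts.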
